A study of Homo sapiens with 12 samples.

Results

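The expression of 9 enzymes that break down or build heme was described in human liver spheroid co-cultures exposed to total parenteral nutrition (TPN). These were HMOX1, BLVRA and BLVRB, which turn heme into bilirubin, and ALAS1, ALAD, UROS, UROD, CPOX and FECH, which belong to the chain of enzymes that makes heme. They were chosen by gene symbol for their place in heme metabolism. All 9 were found among the 16705 genes of the expression table, and all 9 passed the filter on low values.

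The spheroids were built from 2 established cell lines, C3A, a subclone of HepG2 liver tumour cells that keeps many hepatocyte functions, and LX-2, immortalized hepatic stellate cells with an activated phenotype. TPN is an intravenous feeding mixture of amino acids, electrolytes, glucose, lipids, trace elements and vitamins, and liver injury is a known complication of its long use. Spheroids without TPN and spheroids given 1% TPN were collected after 24 h and after 144 h, which makes 4 groups, with 3 replicate libraries per group and 12 in all, and every group held both cell lines in the same medium. The question was how gene expression in liver cells changes with short and long exposure to TPN. Each sequencing library was made from mRNA of pooled spheroids, so that fewer cells of a type and less RNA per cell cannot be told apart in any value given here.

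Heme is an iron-carrying ring molecule that cytochrome P450 enzymes, catalase and the respiratory chain need, and the liver is the main site of its synthesis outside the bone marrow. Synthesis starts in mitochondria with ALAS1, the rate-limiting enzyme in liver, passes through the cytosol with ALAD, UROS and UROD, and returns to mitochondria with CPOX and finally FECH, which inserts the iron. Breakdown is the work of heme oxygenase, which opens the ring and releases iron, carbon monoxide and biliverdin, and of the biliverdin reductases, which form bilirubin. HMOX1 is the inducible heme oxygenase, held down by the repressor BACH1 and activated by NRF2, the product of NFE2L2, at DNA sites called antioxidant response elements, and heme itself represses ALAS1 and relieves BACH1.

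The stretches of 250 bases upstream of the RefSeq transcription start are shown for FECH, BLVRB and ALAS1, which were higher in exposed spheroids at both times, and for UROD, which was lower at 144 h. They are RefSeq sequences of GRCh38.p14, given 5′ to 3′ on the strand of the gene. Matches to TGANNNNGC, a loose form of the core of the antioxidant response element, are in capitals. The gene spans given further on are those of the expression table, which start elsewhere for some genes. RefSeq starts BLVRB at 40465745 and the table at 40474720, so the BLVRB window lies inside the span of the table. The UROD window runs past the start of the table at 45012212 to the base before the RefSeq start at 45012254. Both strands were searched, and a match on the opposite strand appears as its complement.
FECH, chr18:57586703-57586952, minus strand: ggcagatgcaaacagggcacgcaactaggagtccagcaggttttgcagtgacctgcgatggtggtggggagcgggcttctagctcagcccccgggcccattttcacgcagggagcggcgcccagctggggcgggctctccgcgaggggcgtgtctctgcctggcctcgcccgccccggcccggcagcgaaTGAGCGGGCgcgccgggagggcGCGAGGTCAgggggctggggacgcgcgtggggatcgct
UROD, chr1:45012004-45012253, plus strand: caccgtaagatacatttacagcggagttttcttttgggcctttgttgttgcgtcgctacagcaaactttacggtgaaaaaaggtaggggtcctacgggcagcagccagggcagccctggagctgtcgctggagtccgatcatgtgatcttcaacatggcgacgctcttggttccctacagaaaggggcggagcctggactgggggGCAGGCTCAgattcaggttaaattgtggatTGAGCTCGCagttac
BLVRB, chr19:40465746-40465995, minus strand: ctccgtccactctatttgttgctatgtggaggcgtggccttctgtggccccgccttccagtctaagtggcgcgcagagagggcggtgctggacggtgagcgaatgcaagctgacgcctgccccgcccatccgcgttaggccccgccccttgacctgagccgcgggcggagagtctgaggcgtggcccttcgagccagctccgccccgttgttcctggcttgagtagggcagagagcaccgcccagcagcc
ALAS1, chr3:52197833-52198082, plus strand: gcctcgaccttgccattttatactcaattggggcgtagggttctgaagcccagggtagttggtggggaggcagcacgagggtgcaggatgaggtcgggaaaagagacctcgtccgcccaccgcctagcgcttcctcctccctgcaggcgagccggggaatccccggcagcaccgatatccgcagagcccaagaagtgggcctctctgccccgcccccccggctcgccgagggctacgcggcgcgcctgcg

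In the FECH sequence TGANNNNGC was found 2 times, as TGAGCGGGC at -60 to -52 on the strand of the gene and as TGACCTCGC at -38 to -30 on the opposite strand, counted from the start site. UROD also held 2 matches, TGAGCCTGC at -45 to -37 on the opposite strand and TGAGCTCGC at -15 to -7 on the strand of the gene. BLVRB and ALAS1 held none in this window, nor did BLVRA, ALAD and CPOX. Of 34943 promoters in the same table, 35.1% held at least 1 match in their 250 upstream bases, so the letters are common. Whether NRF2 binds any of these matches was not tested. Of the 9 enzymes, 7 had an entry in this table. HMOX1 and UROS had none, so their upstream bases were not searched.

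After 24 h of exposure to 1% TPN, HMOX1, BLVRB, ALAS1 and FECH were higher than in untreated spheroids and ALAD was lower. After 144 h the same 4 enzymes were higher, and ALAD and UROD were lower. A gene was called when its Benjamini-Hochberg adjusted p value from limma was below 0.05 over all 11713 genes tested. At 24 h 5 of the 9 enzymes were called, where 10.5% of all genes tested were called, with 4 higher against 5.04% of all genes and 1 lower against 5.46%. At 144 h 6 of the 9 were called, where the share of all genes was 52.5%, with 4 higher against 24.2% and 2 lower against 28.3%. The number of enzymes called at 144 h, 6 of 9, was therefore near what the share of all genes gives. With the added condition of an absolute log2 fold change above 0.58, HMOX1 and FECH were differentially expressed genes (DEGs) at 24 h and HMOX1, BLVRB and FECH at 144 h, against 0.914% and 9.48% of all genes. The median log2 fold change of the 9 enzymes was 0.03 at 24 h and -0.01 at 144 h, beside -0.0045 and -0.018 for all genes, so the enzymes did not move as a block.

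**Figure D1:**
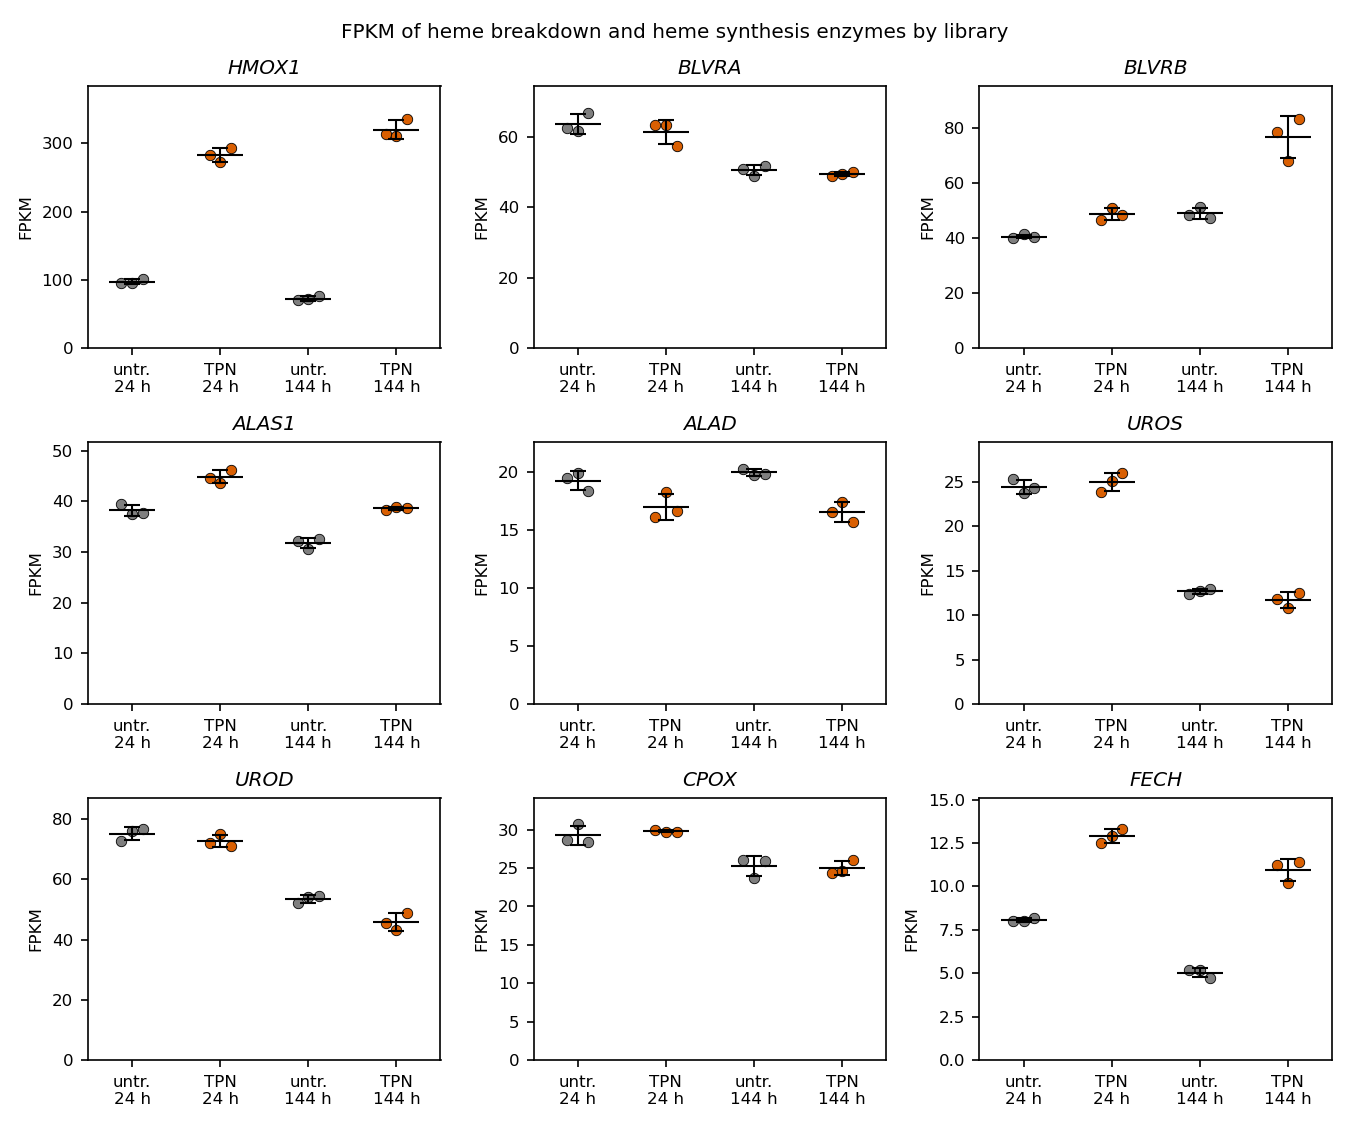
FPKM (fragments scaled to transcript length and library size) of the 9 enzymes in each of 12 libraries, with untreated spheroids in grey and spheroids exposed to 1% TPN in orange, and with the mean and SD of 3 replicates as a bar and whiskers. HMOX1 and FECH show exposed libraries well above the untreated ones at both times, while UROS and UROD are lower in all 144 h libraries than in any 24 h library.

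HMOX1 (gene 3162, chr22:35381096-35394207 in GRCh38.p13), the inducible enzyme that opens the heme ring, was measured at 95.51, 95.13 and 101.09 FPKM in the untreated 24 h libraries and at 282.43, 272.96 and 293.64 FPKM in those exposed to TPN for 24 h. After 144 h the values were 69.88, 71.77 and 75.96 FPKM in untreated and at 313.52, 310.37 and 336.03 FPKM in exposed libraries. Every exposed library was far above every untreated one, and the lowest exposed value was 2.70 times the highest untreated value at 24 h and 4.09 times at 144 h. The mean rose from 97.2 ± 3.34 to 283 ± 10.4 FPKM at 24 h (SD, n = 3), a log2 fold change of 1.54 (SE 0.0414, adjusted p = 3.63e-11), or 2.91-fold. At 144 h it rose from 72.5 ± 3.11 to 320 ± 14.0 FPKM, a log2 fold change of 2.14 (SE 0.0414, adjusted p = 3.78e-13), or 4.41-fold. Ordered by log2 fold change from the highest, HMOX1 was number 9 of the 11713 genes tested at 24 h and number 30 at 144 h. HMOX1 exceeded HMOX2, the constitutive heme oxygenase, 3.10-fold in untreated spheroids at 24 h and 10.4-fold in exposed ones, and 3.07-fold and 14.9-fold at 144 h, in FPKM. HMOX2 itself had log2 fold changes of -0.19 (adjusted p = 0.0989) at 24 h and -0.14 (adjusted p = 0.0996) at 144 h, neither of which passed the test.

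The biliverdin reductases behaved differently from each other. BLVRA (gene 644, chr7:43758122-43810632), the reductase that acts on the adult form of biliverdin, was measured at 62.31, 61.44 and 66.69 FPKM in untreated and 63.17, 63.27 and 57.41 FPKM in exposed libraries at 24 h. The 144 h values were 50.91, 48.82 and 51.61 FPKM in untreated and 48.85, 49.28 and 49.96 FPKM in exposed libraries. The groups overlapped at both times, with log2 differences of -0.05 (95% interval -0.14 to 0.04, adjusted p = 0.515) and -0.03 (-0.12 to 0.06, adjusted p = 0.565). BLVRB (gene 645, chr19:40446561-40474720), which reduces flavins and the fetal form of biliverdin, was measured at 40.14, 41.41 and 40.29 FPKM in untreated and 46.78, 51.01 and 48.40 FPKM in exposed libraries at 24 h. After 144 h BLVRB was at 48.52, 51.22 and 47.53 FPKM in untreated and 78.81, 68.32 and 83.40 FPKM in exposed libraries. The exposed libraries lay above the untreated ones at both times, with the widest spread in the 144 h exposed group. BLVRB rose by a log2 fold change of 0.26 (SE 0.0593, adjusted p = 0.0118) at 24 h, a call that was lost without replicate 2 of the exposed group (0.23, adjusted p = 0.0551). At 144 h its log2 fold change was 0.64 (adjusted p = 9.79e-07), or 1.56-fold. The ratio of BLVRB to BLVRA in FPKM was 0.641 (range 0.604 to 0.674) in untreated and 0.797 (0.74 to 0.843) in exposed spheroids at 24 h. At 144 h it was 0.974 (0.921 to 1.05) in untreated and 1.56 (1.39 to 1.67) in exposed spheroids. The ratio thus rose with time without TPN too, and BLVRB lay above BLVRA in every library exposed for 144 h.

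ALAS1 (gene 211, chr3:52198083-52216136), the enzyme that sets the rate of heme synthesis in liver, was measured at 39.45, 37.53 and 37.61 FPKM in untreated and 44.57, 43.68 and 46.20 FPKM in exposed libraries at 24 h. ALAS1 was lower in both groups at 144 h, at 32.17, 30.60 and 32.52 FPKM in untreated and 38.25, 38.94 and 38.61 FPKM in exposed libraries. The groups did not overlap at either time, but the distance was small. ALAS1 rose by a log2 fold change of 0.23 (SE 0.0345, adjusted p = 0.000728), or 1.17-fold, at 24 h and 0.28 (adjusted p = 1.41e-05), or 1.22-fold, at 144 h. HMOX1 rose more than ALAS1, and the ratio of HMOX1 to ALAS1 in FPKM went from 2.55 ± 0.134 to 6.31 ± 0.0569 at 24 h and from 2.28 ± 0.0973 to 8.29 ± 0.375 at 144 h.

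ALAD (gene 210, chr9:113384380-113401301) joins the products of ALAS1 into the first ring. It was measured at 19.55, 19.93 and 18.42 FPKM in untreated and 16.18, 18.30 and 16.64 FPKM in exposed libraries at 24 h, and at 20.34, 19.79 and 19.90 FPKM in untreated and 16.62, 17.47 and 15.68 FPKM in exposed libraries at 144 h. All exposed libraries were below all untreated ones at the same time, by a narrow margin at 24 h. The log2 fold change was -0.18 (SE 0.0523, adjusted p = 0.0434) at 24 h and -0.27 (adjusted p = 0.000677) at 144 h. The 24 h call is a weak one: it was lost when any of several libraries was left out, in the exposed group replicate 1 (adjusted p = 0.161) or 3 (0.128) and in the untreated group replicate 1 (0.118) or 2 (0.146), and also without any one untreated 144 h library (0.0514 to 0.0561) or replicate 1 of the 144 h exposed group (0.0564).

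UROS (gene 7390, chr10:125784980-125823280), which closes the ring, was measured at 25.27, 23.70 and 24.30 FPKM in untreated and 23.86, 25.02 and 25.97 FPKM in exposed libraries at 24 h. The libraries of 144 h were at 12.38, 12.73 and 12.93 FPKM in untreated and 11.75, 10.76 and 12.53 FPKM in exposed libraries. Untreated and exposed libraries overlapped at both times, with log2 differences of 0.03 (95% interval -0.08 to 0.14, adjusted p = 0.799) and -0.12 (-0.23 to -0.01, adjusted p = 0.0719). UROS was called lower at 144 h when libraries were scaled to the same FPKM sum (-0.13, adjusted p = 0.0395) and without replicate 3 of the exposed group (-0.17, adjusted p = 0.0146).

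UROD (gene 7389, chr1:45012212-45015575) trims the side chains of the ring. It was measured at 72.78, 76.03 and 76.91 FPKM in untreated and 72.19, 74.96 and 71.19 FPKM in exposed libraries at 24 h, and the log2 difference of -0.05 (95% interval -0.14 to 0.04, adjusted p = 0.552) did not pass the test. UROD was at 52.05, 54.15 and 54.44 FPKM in untreated and 45.45, 43.07 and 48.88 FPKM in exposed libraries at 144 h, which did not overlap. UROD fell there by 0.23 on the log2 scale (SE 0.0426, adjusted p = 0.000538). CPOX (gene 1371, chr3:98569837-98593684), the next enzyme of the chain, was measured at 28.62, 30.66 and 28.42 FPKM in untreated and 29.93, 29.71 and 29.69 FPKM in exposed libraries at 24 h. CPOX values at 144 h were 26.09, 23.73 and 25.89 FPKM in untreated and 24.33, 24.58 and 26.10 FPKM in exposed libraries. CPOX overlapped at both times, with log2 differences of 0.03 (-0.07 to 0.12, adjusted p = 0.781) and -0.01 (-0.11 to 0.08, adjusted p = 0.827).

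FECH (gene 2235, chr18:57544377-57586708), which inserts iron in the last step, was the least abundant of the 9 enzymes and the one of the synthesis chain that changed most. It was measured at 8.02, 7.99 and 8.18 FPKM in untreated and 12.51, 12.90 and 13.29 FPKM in exposed libraries at 24 h. Its 144 h values were 5.17, 5.17 and 4.72 FPKM in untreated and 11.24, 10.22 and 11.38 FPKM in exposed libraries. The groups were well apart, with the lowest exposed value 1.53 times the highest untreated value at 24 h and 1.98 times at 144 h. The FECH mRNA rose by a log2 fold change of 0.67 (SE 0.0539, adjusted p = 2.34e-06), or 1.59-fold, at 24 h and 1.11 (adjusted p = 2.11e-09), or 2.16-fold, at 144 h. Among the genes tested it was number 75 from the highest log2 fold change at 24 h and number 206 at 144 h. Against CPOX, an earlier mitochondrial enzyme, the ratio of FECH in FPKM went from 0.276 ± 0.0140 to 0.433 ± 0.0148 at 24 h and from 0.199 ± 0.0178 to 0.438 ± 0.0232 at 144 h. Of the 6 enzymes of the synthesis chain, the first, ALAS1, and the last, FECH, were thus higher at both times, ALAD was lower at both times and UROD at 144 h, and UROS and CPOX did not pass the test.

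**Figure D2:**
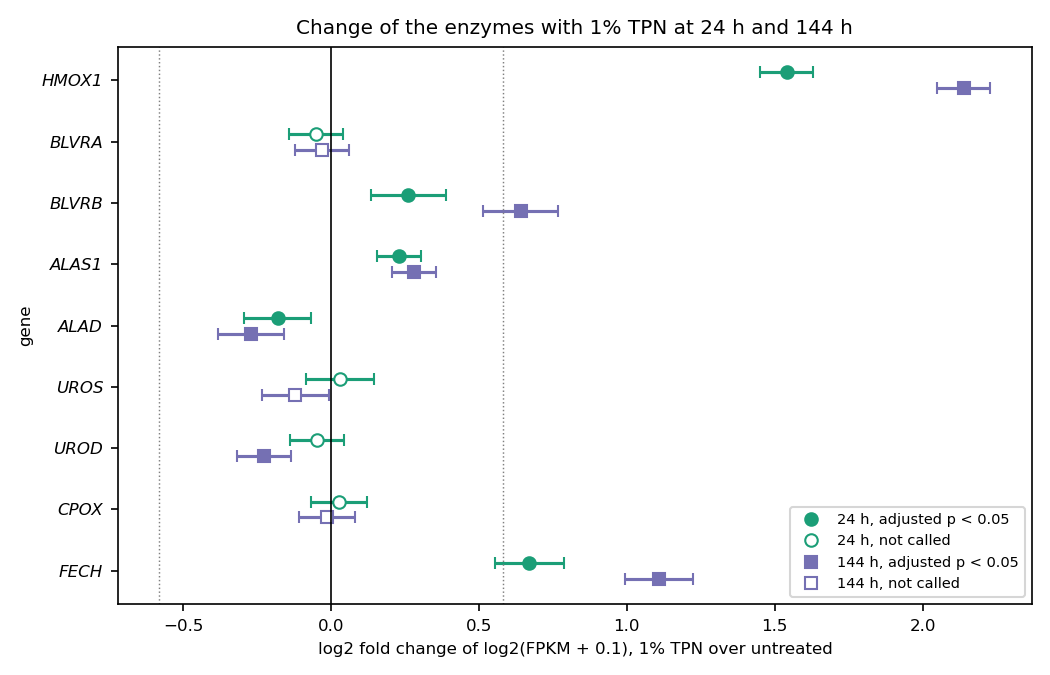
Log2 fold change of 1% TPN over untreated spheroids for each enzyme at 24 h (circles) and 144 h (squares), with 95% intervals, filled where the adjusted p value was below 0.05 and with dotted lines at an absolute value of 0.58. HMOX1 at 2.14 and FECH at 1.11 reach farthest at 144 h, and UROS, CPOX and BLVRA have open symbols at both times.

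An exact two-sided permutation test of the 3 exposed against the 3 untreated values of one enzyme has 20 arrangements and cannot give a p value below 0.1. This smallest value was reached by the 5 enzymes whose groups did not overlap at 24 h and by the 6 at 144 h, and over the 18 tests it became 0.164 after adjustment. Groups that did not overlap were found for 29.9% of all genes tested at 24 h and 57.3% at 144 h. The calls therefore rest on the limma model, which shares the estimate of the spread among genes. The labels give the libraries of a group as separate replicates, and the study states that they came from independent experiments.

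A dependence of the TPN effect on exposure time was examined by subtracting the 24 h contrast from the 144 h contrast, in which 30.4% of all genes were called, 14.1% higher and 16.3% lower. Of the 9 enzymes 4 were called, 3 higher and 1 lower. The rise at 144 h exceeded that at 24 h for HMOX1 by 0.60 on the log2 scale (SE 0.0586, adjusted p = 9.93e-06), for FECH by 0.44 (95% interval 0.27 to 0.60, adjusted p = 0.000806) and for BLVRB by 0.38 (0.20 to 0.56, adjusted p = 0.00404). For HMOX1 and FECH the wider gap came with a lower untreated level at 144 h, and for BLVRB with a higher level in both groups. UROD differed by -0.18 (-0.31 to -0.05, adjusted p = 0.0384), a call lost without either of replicates 1 and 2 of the untreated 24 h, exposed 24 h and exposed 144 h groups or either of replicates 2 and 3 of the untreated 144 h group (adjusted p = 0.0554 to 0.0902). ALAS1 differed by 0.05 (-0.05 to 0.16, adjusted p = 0.467) and ALAD by -0.09 (-0.25 to 0.07, adjusted p = 0.387), so a different effect at 144 h was not shown for these enzymes.

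The enzymes also changed with time in spheroids that received no TPN. Between untreated 24 h and untreated 144 h, 8 of the 9 were called, 7 of them lower and 1 higher, where 72.6% of all genes were called, 52.4% lower and 20.1% higher. UROS, which TPN did not move past the threshold, fell most, by 0.94 on the log2 scale (SE 0.0529, adjusted p = 2.71e-09), to 0.521 of its 24 h level. FECH fell by 0.67 (adjusted p = 8.54e-08), to 0.627 of its level, and UROD by 0.49 (adjusted p = 1.95e-07). HMOX1 fell by 0.42 (adjusted p = 6.29e-07), BLVRA by 0.33 (adjusted p = 8.50e-06), ALAS1 by 0.27 (adjusted p = 9.85e-06) and CPOX by 0.21 (adjusted p = 0.000670). BLVRB was the enzyme that rose, by 0.27 (adjusted p = 0.000921), while ALAD had a difference of 0.05 (adjusted p = 0.380).

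The median of all genes itself lay at -0.18 in this contrast, and relative to it the differences were -0.76 for UROS, -0.49 for FECH, -0.31 for UROD, -0.24 for HMOX1, -0.15 for BLVRA, -0.08 for ALAS1, -0.03 for CPOX, 0.24 for ALAD and 0.46 for BLVRB. Of the genes called, 27.8% were higher at 144 h, and this share became 49.6% after median-ratio scaling and 43.4% after quantile normalization. With both scalings 2 enzymes were higher and 6 lower, since the call for CPOX was lost (-0.03, adjusted p = 0.520, and -0.05, adjusted p = 0.303) and ALAD was called higher (0.23, adjusted p = 0.00171, and 0.21, adjusted p = 0.00260). The summed FPKM of 10 stellate cell markers moved with time too, from 135.78 to 143.82 in untreated 24 h libraries down to 75.32 to 80.24 at 144 h, and its part in the changes of the enzymes was not tested.

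FPKM divides by transcript length, so levels can be set beside each other between genes. At 24 h the order from the highest mean FPKM was HMOX1, UROD, BLVRA, BLVRB, ALAS1, CPOX, UROS, ALAD and FECH, in untreated and in exposed spheroids alike, and no neighbours in it overlapped in their ranges. At 144 h in untreated spheroids BLVRA (50.4 ± 1.45 FPKM) and BLVRB (49.1 ± 1.91 FPKM) overlapped, and ALAD came before UROS. After 144 h of TPN BLVRB (76.8 ± 7.73 FPKM) moved up to the position after HMOX1, BLVRA (49.4 ± 0.560 FPKM) overlapped with UROD (45.8 ± 2.92 FPKM), and UROS (11.7 ± 0.887 FPKM) overlapped with FECH (10.9 ± 0.633 FPKM). FECH, at 0.0938 ± 0.0065 of the UROD level in untreated 144 h spheroids, was at 0.239 ± 0.0074 of it after TPN.

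Downstream of the reductases, bilirubin is conjugated and exported. Of 7 tested genes that support heme breakdown or handle bilirubin, 2 were called at 24 h and 6 at 144 h, each of them higher, beside 5.04% and 24.2% of all genes called higher, with medians of 0.25 and 1.49 on the log2 scale. ABCC2, the canalicular pump for conjugated bilirubin, rose by 0.74 (adjusted p = 1.29e-08) and 0.98 (adjusted p = 1.42e-10), and ABCC3, the pump toward the blood, by 0.48 (adjusted p = 1.34e-06) and 1.49 (adjusted p = 2.09e-12). UGT1A1, which conjugates bilirubin, was at 0.27, 0.23 and 0.13 FPKM in untreated and 2.89, 2.87 and 3.69 FPKM in exposed libraries at 144 h. This log2 fold change of 3.41 (adjusted p = 3.20e-08) became 1.77 with a pseudocount of 1. Its mean FPKM was 0.29, 0.42 and 0.21 in the untreated 24 h, exposed 24 h and untreated 144 h groups, each under the filter of 0.5. UGT1A1 thus entered the test only through the exposed 144 h libraries, and its call among the 6 at 144 h is no independent support. At 24 h its difference of 0.43 (adjusted p = 0.267) did not pass the test, and its reads can be shared with the other UGT1A genes, which have exons in common. POR, which passes electrons to heme oxygenase and cytochrome P450 enzymes, had a difference of 0.08 (adjusted p = 0.154) at 24 h and rose by 0.43 (adjusted p = 1.55e-07) at 144 h. The other members called at 144 h were GSTA1 and GSTA2, bilirubin-binding glutathione transferases with near-identical sequences, at 1.78 and 2.07.

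Of 11 further genes of heme synthesis, 1 was called at 24 h, as higher. This is near the shares of all genes at 24 h, 10.5% called and 5.04% called higher. At 144 h 4 were higher and 3 lower, beside 24.2% and 28.3% of all genes. The medians were 0.03 at 24 h and -0.01 at 144 h. The 7 of 11 called at 144 h are near the 52.5% of all genes, and the 24 h count became 2 without untreated 24 h replicate 1, with quantile normalization and with a replicate block. ABCB6, a porphyrin transporter, rose by 0.35 (adjusted p = 1.17e-05) and 0.10 (adjusted p = 0.0156, lost without replicate 1 of either 144 h group). At 144 h SLC25A38, the mitochondrial carrier of glycine for ALAS, fell by 0.37 (adjusted p = 0.000231), the inner membrane transporter ABCB10 by 0.30 (adjusted p = 0.00193) and the mitochondrial glutathione carrier SLC25A39 by 0.20 (adjusted p = 9.94e-05), and COX15, a heme A synthase, rose by 0.28 (adjusted p = 0.00172). PPOX, the enzyme before FECH, had differences of 0.04 and -0.22 (adjusted p = 0.0604 at 144 h), which did not pass the test.

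Iron released from heme is stored or exported. Of 11 genes of iron supply and storage, 3 were higher and 1 lower at 24 h, beside 5.04% and 5.46% of all genes, and 6 were higher and 1 lower at 144 h, beside 24.2% and 28.3%. The total called at 144 h was near the 52.5% of all genes. FTH1, a ferritin chain, rose by 0.50 (adjusted p = 2.90e-08) and 1.29 (adjusted p = 6.07e-13). FTL, the other ferritin chain, rose by 0.39 (adjusted p = 1.03e-06) and 0.93 (adjusted p = 2.37e-11). Quantile normalization gives equal values to genes of equal rank. It left FTL with a log2 fold change of 1.8e-15 at 24 h, so that setting could not show a change there. The iron exporter SLC40A1 rose by 0.36 (adjusted p = 4.45e-05) and 1.19 (adjusted p = 5.22e-11). SLC25A37, a mitochondrial iron carrier, rose by 0.49 at 144 h (adjusted p = 9.31e-05), and ISCU, a scaffold for iron-sulfur clusters, fell by 0.16 at 24 h (adjusted p = 0.00824). Of 13 heme transport genes, 2 were higher and 2 lower at 24 h, beside 5.04% and 5.46% of all genes. At 144 h 6 were higher and 1 lower, beside 24.2% and 28.3%, and the total of 7 was again near the 52.5% of all genes. SLC48A1, which carries heme out of lysosomes, rose by 0.39 (adjusted p = 0.000515) and 0.89 (adjusted p = 2.17e-08), and HP, the plasma hemoglobin binder, went from -0.34 (adjusted p = 0.00531) at 24 h to 1.08 (adjusted p = 2.54e-08) at 144 h.

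Among 13 tested regulators of HMOX1 and ALAS1, the 24 h calls were 5 higher and 2 lower, where 5.04% and 5.46% of all genes were called, and the 144 h calls 6 higher and 5 lower, where 24.2% and 28.3% were called, with medians of 0.14 and 0.04. BACH1, the repressor of HMOX1, rose by 0.28 (adjusted p = 0.00148) and 0.42 (adjusted p = 4.93e-06), and MAFG, a partner of BACH1 and NRF2, by 0.31 (adjusted p = 8.30e-05) and 0.53 (adjusted p = 3.85e-08). NFE2L2 fell by 0.31 (adjusted p = 1.95e-05) and 0.40 (adjusted p = 1.93e-07). Thus the mRNA of the activator was lower and that of the repressor higher in the spheroids in which HMOX1 was higher. PPARGC1A, a coactivator of ALAS1, had differences of 0.21 (adjusted p = 0.0685) and 0.04 (adjusted p = 0.668). NR1I2, a drug-sensing receptor that acts on ALAS1, rose by 0.30 (adjusted p = 0.00743) and 0.53 (adjusted p = 1.01e-05), and FOXO1, a transcription factor of the fasting liver, fell by 0.84 at 144 h (adjusted p = 1.15e-07). Of 14 other NRF2 targets, which include ABCC2, 13 were tested. All 13 rose at each time, beside 5.04% and 24.2% of all genes called higher, with medians of 1.04 and 1.57. ME1, at no more than 0.15 FPKM in any library, did not pass the filter on low values. GCLM, for glutathione synthesis, rose by 1.69 and 2.14.

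**Figure D3:**
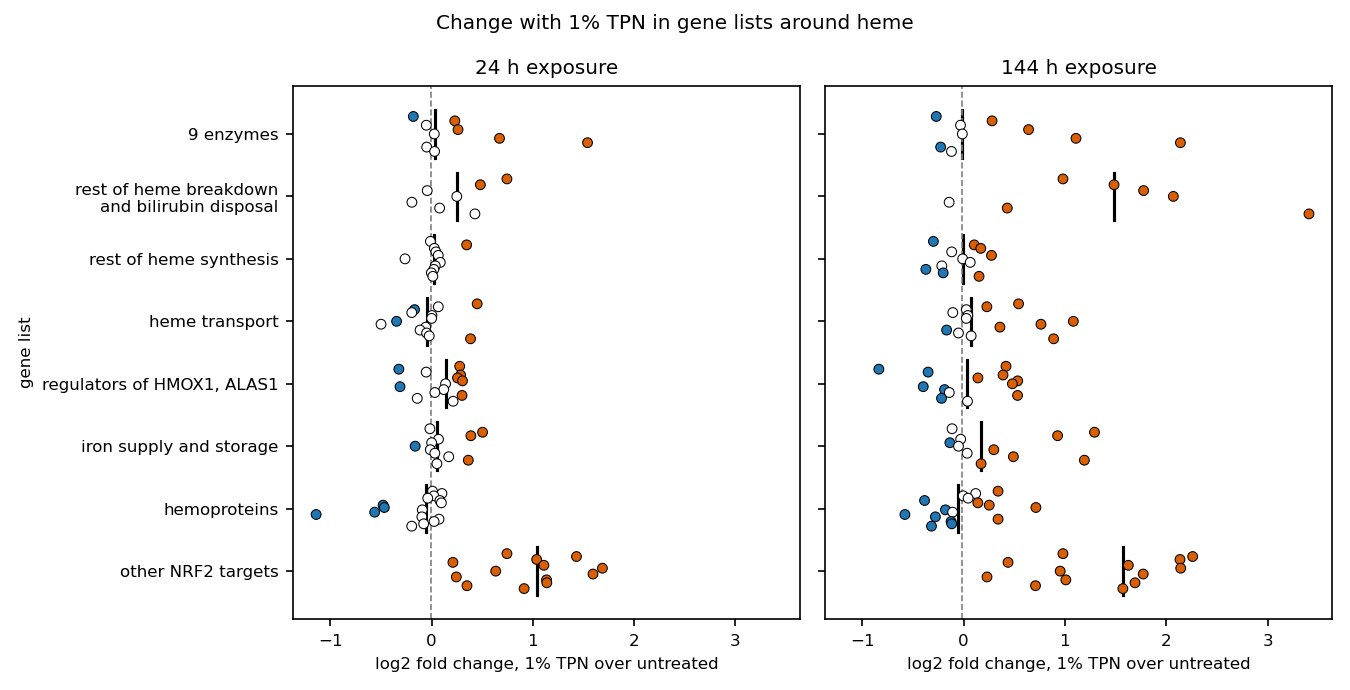
Log2 fold change of 1% TPN over untreated spheroids at 24 h (left) and 144 h (right) for the 9 enzymes and 7 gene lists around heme, 1 point per gene, orange where higher and blue where lower at an adjusted p value below 0.05 and white otherwise, with a black line at each median. The medians of the 9 enzymes lie at 0.03 and -0.01, and those of the other NRF2 targets at 1.04 and 1.57.

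The genes whose pattern was most like that of HMOX1 were sought by Pearson's r of log2(FPKM + 0.1) over the 12 libraries, among 8337 genes with a mean of at least 5 FPKM. They were SRXN1, which repairs oxidized peroxiredoxins (r = 0.995), ABCC2 (0.991), GCLM (0.990), IKBKG (0.988) and TFE3 (0.986). For ALAS1 they were MGST1, a microsomal glutathione transferase (0.986), NQO1, a quinone reductase (0.984), E2F6 (0.982), KCTD20 (0.981) and PRR5 (0.977). Among the enzymes themselves HMOX1 had r = 0.915 with FECH, 0.762 with ALAS1, 0.647 with BLVRB and -0.914 with ALAD, and ALAS1 had r = 0.929 with FECH. These values describe 4 group levels more than 12 independent points, since replicates of a group lay close together.

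**Figure D4:**
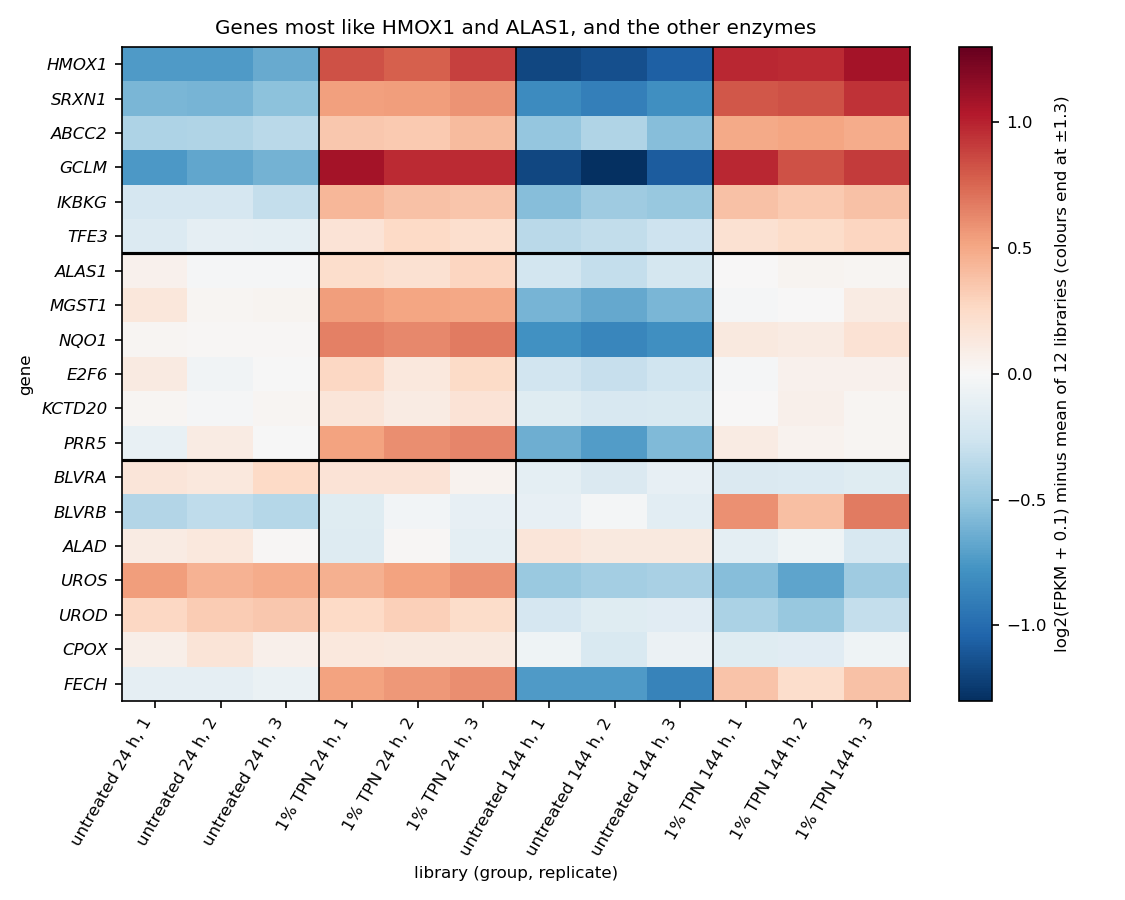
Heat map of log2(FPKM + 0.1) minus the mean of 12 libraries, with libraries in columns and genes in rows, showing HMOX1 and the 5 genes most like it, ALAS1 and the 5 most like it, and the other 7 enzymes. Rows of HMOX1 and FECH are low in untreated and high in exposed libraries, BLVRB is highest in the 144 h exposed libraries, and UROS and UROD follow time.

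Marker genes were read beside these results. All 10 hepatocyte markers were at 1 FPKM or more in each group, and their summed FPKM lay between 13888 and 14013 in exposed against 14694 and 15141 in untreated libraries at 24 h, and between 15567 and 16708 against 18709 and 19875 at 144 h. Of these markers 5 were called lower at 24 h and 7 at 144 h, beside 5.46% and 28.3% of all genes tested. Of 10 stellate cell markers, 8, 7, 5 and 4 reached a mean of 1 FPKM in the untreated 24 h, exposed 24 h, untreated 144 h and exposed 144 h groups. LUM was at no more than 0.09 FPKM in any library. COL1A1 was at 2.38, 1.68 and 1.69 FPKM in untreated and 0.92, 0.62 and 0.70 FPKM in exposed 144 h libraries. Among 8 stellate markers tested 1 was lower at 24 h and 5 at 144 h, beside the same shares of all genes. The 3 not called at 144 h were ACTA2 (-0.08, adjusted p = 0.130), SPARC (0.06, adjusted p = 0.320) and THY1 (-0.38, adjusted p = 0.110). Of 12 markers of red cell precursors, which make heme for hemoglobin, 7 were in the table. Their summed FPKM was 18.52 to 20.49 in exposed against 3.94 to 6.37 in untreated libraries at 144 h, nearly all of it HBA1. HBA1 was the marker of this list that could be tested and was called higher at 144 h (log2 fold change 3.89, adjusted p = 0.00613, 2.02 to 5.01 over the alternatives). A value of 0 for HBA1 in untreated 144 h replicate 3, where HBA2 was at 3.4 FPKM, makes this fold change larger. The defining markers GATA1 and KLF1 were at no more than 0.22 and 0.08 FPKM in any library. Of 10 macrophage markers, 6 were in the table, and 3 of them reached a mean of 1 FPKM in each group, with a summed FPKM of 1350 to 1449 in exposed against 1131 to 1214 in untreated libraries at 144 h. Of the 3 tested, 1 was called higher at 24 h and 2 at 144 h, beside 5.04% and 24.2% of all genes. CD14 had differences of -0.40 (adjusted p = 0.264) at 24 h and -0.08 (adjusted p = 0.753) at 144 h, which did not pass the test. CD68 rose by 0.17 (adjusted p = 0.00373) at 24 h and 0.41 (adjusted p = 1.84e-07) at 144 h. LYZ, at 1081 FPKM or more in every library, rose by 0.27 (adjusted p = 5.03e-05) at 144 h. PTPRC and CSF1R, which define blood-derived cells and macrophages, were at no more than 0.05 and 0.06 FPKM. The part of these markers in the changes of the enzymes was not tested.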

How the data were processed

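RNA of 12 libraries was sequenced by the authors as strand-specific mRNA libraries. Per the labels and the study's methods, reads were filtered with SOAPnuke, aligned to the GRCh38.p13 genome by HISAT2 v2.0.4 and to transcripts by Bowtie2 v2.2.5, and FPKM values were calculated with RSEM. These FPKM values, deposited by the authors per gene and library, were used without further scaling. Of the table's lines, 20 held no gene values. Read counts were not used here, so the size of the steps between low FPKM values was used to estimate depth, at 1.87e+07 fragments (1.82e+07 to 1.92e+07 per library), with 83.4% of 604 values within 0.15 fragments of a whole number. The lowest enzyme value, 4.72 FPKM, corresponds to about 153 fragments on 2000 bases. The sum of FPKM was 561657 to 583722 per library, and no pair of libraries was identical.

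Genes with a mean of at least 0.5 FPKM (11713 of 16705) entered a limma 3.58.1 model (R 4.3.3) of log2(FPKM + 0.1) over 4 groups, with the intensity trend of eBayes and Benjamini-Hochberg adjustment over all genes tested. Log2 fold changes are on this scale and understate changes of low genes. A DEG needed an adjusted p value under 0.05 together with a log2 fold change beyond 0.58 in either direction. Contrasts were exposed against untreated at each time, their difference, and untreated 144 h against 24 h. Single enzymes were also compared with exact permutation tests. Samples were grouped by their titles. The enzymes and gene lists were chosen with earlier results of these data known. All 9 enzymes are named, and of each list the called genes with the largest change (at most 4 per contrast) and HMOX2, POR, BACH1, NFE2L2, PPARGC1A, NR1I2, FTH1, FTL and UGT1A1. Some genes of the lists that meet this are given only in the counts. On simulated data of 144 h with 11713 genes, 80 of 100 genes changed by 0.5 and 99 of 100 changed by 1 on the log2 scale were recovered. All other genes were simulated without change, whereas 52.5% of genes were called in the real 144 h data. The simulated rates therefore need not hold for the real data. Alternatives changed the pseudocount, the filter, the scaling, the trend, the libraries in the model and the replicate block, and left out each library in turn. Tables and plots were made in Python 3.11.15 (pandas 2.3.3, scipy 1.17.1, matplotlib 3.10.9).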

Additional observations from a re-analysis of the deposited data

Results flagged for a closer look

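For 4 of the 9 enzymes the effect of TPN at 144 h differed from that at 24 h by a test of the difference itself in limma. On the log2 scale the 144 h effect exceeded the 24 h effect by 0.60 for HMOX1 (adjusted p = 9.93e-06), 0.44 for FECH (adjusted p = 0.000806), 0.38 for BLVRB (adjusted p = 0.00404) and was different by -0.18 for UROD (adjusted p = 0.0384), against 30.4% of all genes called in this test. Untreated libraries of both times enter these differences, and the groups of 3 are too small for a test of single libraries that stand apart.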

How the results depend on the processing

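The number of enzymes called was 5 at 24 h (4 to 5 over all alternatives), 6 at 144 h (6 to 7), 4 for the difference between times (3 to 5) and 8 for time in untreated spheroids (8 in each alternative). Over all alternatives, 747 log2 fold changes of single enzymes kept direction and side of the threshold, 24 lost the call, 5 gained it and 7 turned sign. Those that turned were close to 0 and never called: for BLVRA the difference between times (0.02) became -0.016 without untreated 24 h replicate 3, -0.026 without 1% TPN 24 h replicate 3 and -0.0030 without untreated 144 h replicate 2 (range over left-out libraries -0.026 to 0.044), and for CPOX the 144 h change (-0.01) became 0.011 with quantile normalization, 0.012 and 0.0063 without untreated 144 h replicate 1 or 3 and 0.0065 without 1% TPN 144 h replicate 1 (range -0.056 to 0.012). The ALAD call at 24 h was also lost with no filter (adjusted p = 0.0655), with only the libraries of the contrast (0.0676) and without the intensity trend (0.0707), and the UROD difference between times with no filter (0.0567) and without the trend (0.0723). Scaling to the same FPKM sum made UROS the enzyme added at 144 h, and without 1% TPN 144 h replicate 3 the UROS difference between times was called (-0.20, adjusted p = 0.0450). Over all genes, DEGs numbered 107 at 24 h and 1110 at 144 h, and 58 and 698 with a pseudocount of 1, and 59 and 523 among genes with a mean of at least 5 FPKM. Deviations of untreated and exposed libraries from their group means were weakly correlated, at -0.083 to 0.1025 for the same number and -0.1631 to 0.0773 for other numbers. The numbers were not taken as pairs, but so few correlations cannot show that they are unrelated. With a replicate block, 5, 6, 4 and 8 enzymes were called in the 4 contrasts, and 1209 and 6214 genes in all at 24 h and 144 h in place of 1230 and 6144. The difference between times was not run with only the libraries of one contrast, since it needs all 12. Depth does not limit the enzymes, all at 4.72 FPKM or more, but UGT1A1 and other genes below 0.5 FPKM in untreated spheroids rest on few fragments. With 3 libraries per group, adjusted p values near 0.05 turn on single libraries.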

Other observations

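Hemoproteins carry the heme that these enzymes make. Of 16 tested, 4 were called at 24 h, each of them lower, whereas 5 were higher and 7 lower at 144 h, with medians of -0.06 at both times, where 10.5% and 52.5% of all genes were called. Those higher at 144 h were CYP1A1 (0.71), DGCR8 (0.34), catalase (CAT, 0.34), CYGB (0.25, lost without untreated 144 h replicate 2 or 1% TPN 144 h replicate 1) and CYCS (0.14). Those lower at 144 h were CYP3A7 (-0.58), CYC1 (-0.39), SUOX (-0.32), CYP51A1 (-0.28), CYP27A1 (-0.18), SDHC (-0.12) and SDHD (-0.12). At 24 h CYP3A7, the fetal cytochrome P450 of the liver, fell by 1.14 on the log2 scale (adjusted p = 2.68e-05), CYGB (cytoglobin) by 0.48 (adjusted p = 0.00161) and CYP1A1 by 0.47 (adjusted p = 0.00344), and CYP3A5 had -0.56 (adjusted p = 0.0188), a call lost without untreated 24 h replicate 1 or 1% TPN 24 h replicate 1 or 3. CYP1A1, an enzyme of xenobiotic metabolism, was higher at 144 h by 0.71 (adjusted p = 1.28e-05), a difference between times of 1.18 (adjusted p = 1.59e-05).

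The alpha-globin mRNAs, summed over HBA1 and HBA2 because their reads are shared, were at 3.4 to 6.0 FPKM in untreated and 18.33 to 20.37 FPKM in exposed libraries at 144 h, and at 3.91 to 5.2 and 5.55 to 5.86 FPKM at 24 h. Untreated and exposed libraries did not overlap at either time, and the sum itself was given no test. In untreated 144 h replicate 3 the table lists HBA1 at 0 and HBA2 at 3.4 FPKM, and HBA1 alone was called at 144 h (log2 fold change 3.89, adjusted p = 0.00613) and not at 24 h (0.28, adjusted p = 0.909).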
